A study of Bombyx mori with 4 samples.

Results

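The loci described here are the most abundant transcripts of the silkworm prothoracic gland, selected on a mean over the 4 libraries of at least 1000 FPKM (a fragment rate per kilobase of transcript and per sequencing depth). They number 118 of the 14622 loci in the deposited table, and all 118 passed the filter of a mean of at least 1 FPKM that left 8547 tested loci. The mean level chose them, so their levels and their share of the total are given as a description. The glands came from racial hybrid larvae of Bombyx mori on day 4 of the fifth instar and were cultured in Grace's medium at room temperature. The 4 groups were glands without hormone for 1 h (control 1 h), with 10 nM recombinant prothoracicotropic hormone for 1 h (PTTH 1 h), without it for 3 h (control 3 h) and with it for 3 h (PTTH 3 h). Each group was 1 library of RNA pooled from 2 preparations of 12 to 18 larvae, so there is no replicate and no p-value. The members of a gland pair were split between the media, so the libraries of a time share their larvae while the 2 times come from different larvae.

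The prothoracic gland is the endocrine organ in which insect larvae turn dietary sterols into ecdysteroids, the hormones of moulting and metamorphosis. PTTH, a peptide from the brain, acts on it through the receptor tyrosine kinase Torso and the Ras and ERK cascade, and raises steroid output within hours of exposure. In animal cells in general a small set of transcripts, mostly for ribosomes, translation, the cytoskeleton and energy metabolism, takes up much of the messenger RNA. A shift of their levels changes the share left for all other transcripts, since FPKM values are relative to the library. In whole glands, fewer cells of a type and less RNA per cell cannot be told apart. The table pairs none of its loci with a gene name and 0 of its identifiers matched the reference list of 18210 genes, so the abundant loci are called by their scaffold positions. For the same reason the tissue could not be checked against marker genes, and no role is given to any locus.

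How firmly each locus is measured was read from the authors' confidence limits, with the upper limit read as 2 Poisson standard deviations above the value. The fragments this implies are called implied fragments. Their sum per library ran from 8134930.0 in control 1 h to 10294100.0 in PTTH 3 h. The median abundant locus had 18109.8 to 23059 of them per library, against 249.9 to 269.5 for the median tested locus. A log2 ratio of (FPKM + 1) between 2 libraries therefore had a median counting standard error (SE) of 0.014 to 0.015 in the abundant loci, and of 0.115 to 0.116 in all tested loci. The limits do not scale with level in the same way everywhere: relative to control 1 h, control 3 h had 0.862 times the implied fragments per FPKM at abundant loci over 40000 implied fragments, and 1.24 times at those under 10000. Limits and SE cover counting error only, not variation between larvae, preparations or libraries.

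For 3 of the 118, few fragments or a listed 0 limit the values. The locus with the highest mean, nscaf2800 2702344 to 2702905, stood at 19239.5 FPKM without and 21287 FPKM with PTTH at 1 h, then 22639.6 FPKM without and 16646 FPKM with it at 3 h. These levels rest on 11.5, 18.0, 28.0 and 16.5 implied fragments, and the limits in control 1 h run from 7909.7 to 30569 FPKM. One implied fragment was worth 1668 FPKM there, against 0.165 FPKM for the median abundant locus in the same library. A short locus of 171 bases at nscaf2883 1419090 to 1419261 had 5095 FPKM without and 2477 FPKM with PTTH at 1 h, then 1720.2 FPKM without and 1818 FPKM with it at 3 h, from 2.50 to 4.50 implied fragments. In both, few implied fragments stand beside a high FPKM per implied fragment, and the reason was not tested. The third is nscaf2674 615917 to 617309, with 14246 FPKM in control 1 h, 13889 in PTTH 1 h and 16308 in PTTH 3 h, from 190977, 138651 and 251009 implied fragments. It was listed at exactly 0 in control 3 h, with limits of 0, which can be a failed estimate, and no fold is given for it.

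**Figure D1:**
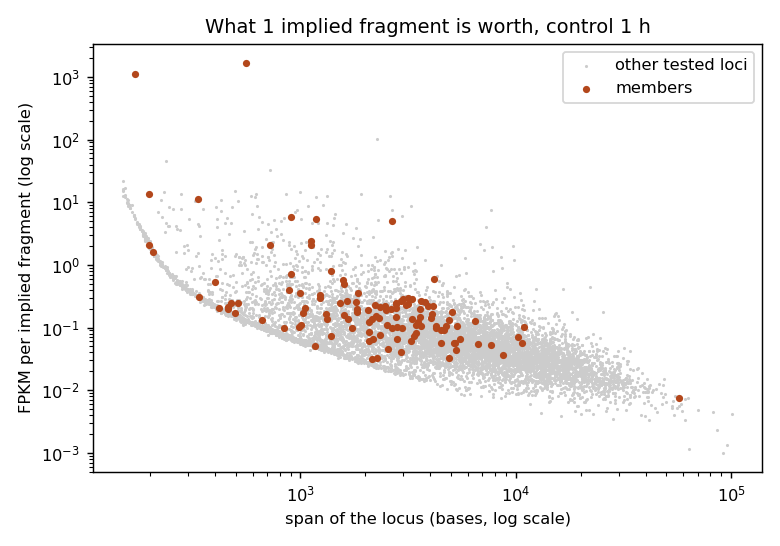
FPKM carried by 1 implied fragment in control 1 h (vertical, log scale) against the span of the locus in bases (horizontal, log scale), with the abundant loci in red and the other tested loci in grey. The 2 abundant loci at the top, at 1668 and 1131 FPKM per fragment, lie far above the other abundant loci.

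Levels among the abundant loci did not thin out evenly. Of the 118, 24 had a mean from 1000 to under 2000 FPKM, 86 lay from 2000 to under 6000 FPKM, and 8 reached 6000 FPKM or more. A further 67 loci of the table had means from 500 to under 1000 FPKM. The median level was 2883 FPKM without and 2761 FPKM with PTTH at 1 h, and 3356 and 3127 FPKM at 3 h. The highest of the 4 levels of a locus was a median of 1.26 times its lowest over the 117 loci that were above 0 throughout, and under 1.5 times in 94 of them. The same ratio was 1.53 in the 8490 tested loci above 0 throughout, whose counting error is larger.

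**Figure D2:**
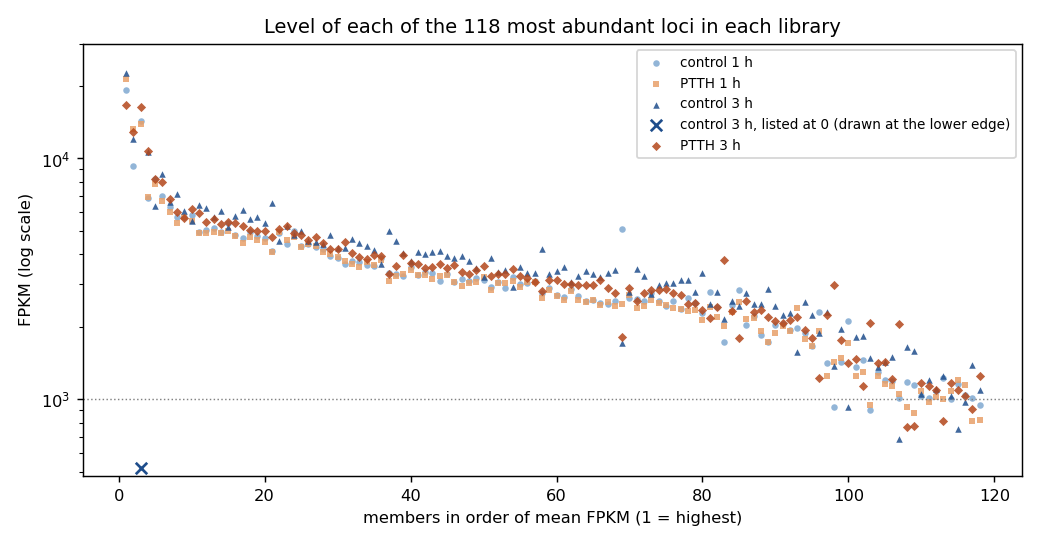
FPKM (log scale) of each of the 118 abundant loci in each library, in order of mean FPKM, with the dotted line at 1000 FPKM. The 4 symbols of a locus mostly lie close together, control 3 h is the highest of them in 82 loci, and the value listed at 0 is drawn as a cross at the lower edge.

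Among the 8 loci of 6000 FPKM or more, a compact locus of 462 bases at nscaf2136 4891425 to 4891887 had 9344 FPKM without and 13204 FPKM with PTTH at 1 h, then 12012 FPKM without and 12907 FPKM with it at 3 h. Control 1 h was the low library here, and each PTTH library stood above its control. At nscaf2511 5369107 to 5371668 the levels were 6875 FPKM without and 6894 FPKM with PTTH at 1 h, then 10680.4 FPKM without and 10701 FPKM with it at 3 h. They fell into pairs by time, with no separation by hormone at either time. The next locus, nscaf2847 8289571 to 8292571, had 8193 FPKM without and 7865 FPKM with PTTH at 1 h, then 6362 FPKM without and 8213 FPKM with it at 3 h, and control 3 h was the low library. At nscaf2930 2341465 to 2343036 the levels were 6975 FPKM without and 6676 FPKM with PTTH at 1 h, then 8633 FPKM without and 7997 FPKM with it at 3 h. Both 3 h libraries lay above both 1 h libraries there. The last of the 6000 FPKM class, nscaf3026 6536156 to 6541507 and nscaf2888 8072628 to 8075391, had 6295 FPKM without and 5992 FPKM with PTTH at 1 h, then 6610.4 FPKM without and 6761 FPKM with it at 3 h, and 5689 FPKM without and 5419.7 FPKM with PTTH at 1 h, then 7142 FPKM without and 6006 FPKM with it at 3 h, respectively. In both of them PTTH 1 h was the lowest library.

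From there down the top 20 lie close together in level. The locus at nscaf2589 1133554 to 1135611 had 5699 FPKM without and 5689 FPKM with PTTH at 1 h, then 6053 FPKM without and 5637 FPKM with it at 3 h. At nscaf2655 1004272 to 1006597 the levels were 5852 FPKM without and 5489 FPKM with PTTH at 1 h, then 5512 FPKM without and 6152 FPKM with it at 3 h. PTTH 3 h was the highest library there, and the intervals lay apart in every comparison. Control 3 h stood highest in the next group, which includes nscaf2770 892881 to 901584 with 4944 FPKM without and 4914 FPKM with PTTH at 1 h, then 6419.9 FPKM without and 5931 FPKM with it at 3 h. It also includes nscaf2859 1156863 to 1159778, which had 5023 FPKM without and 4907 FPKM with PTTH at 1 h, then 6205 FPKM without and 5471 FPKM with it at 3 h. A smaller spread was seen at nscaf3048 207622 to 210390, with 5158 FPKM without and 4965 FPKM with PTTH at 1 h, then 5700.0 FPKM without and 5589 FPKM with it at 3 h. There control 3 h and PTTH 3 h had overlapping limits. The compact locus nscaf2216 1880671 to 1881072 had 4944 FPKM without and 4881 FPKM with PTTH at 1 h, then 6023 FPKM without and 5359 FPKM with it at 3 h, again with control 3 h on top. In contrast, PTTH 3 h was the highest library at nscaf2888 822068 to 824601, with 5384 FPKM without and 5017 FPKM with PTTH at 1 h, then 5201 FPKM without and 5473 FPKM with it at 3 h. Control 3 h led once more at nscaf2930 4519276 to 4522038, with 4834 FPKM without and 4758 FPKM with PTTH at 1 h, then 5775 FPKM without and 5407 FPKM with it at 3 h. It also led at nscaf2822 1426983 to 1428163, with 4682 FPKM without and 4444 FPKM with PTTH at 1 h, then 6091 FPKM without and 5266 FPKM with it at 3 h, though only 853 to 1845 implied fragments stand behind these values. The last 3 of the top 20 share this order of the libraries, with control 3 h first, PTTH 3 h second and PTTH 1 h last. They are nscaf2210 4974628 to 4977938 with 4934 FPKM without and 4712 FPKM with PTTH at 1 h, then 5597 FPKM without and 5042 FPKM with it at 3 h, and nscaf2575 1744616 to 1746279 with 4758 FPKM without and 4606 FPKM with PTTH at 1 h, then 5719 FPKM without and 4985 FPKM with it at 3 h. The third is nscaf2883 1237177 to 1238409, with 4692 FPKM without and 4479 FPKM with PTTH at 1 h, then 5412 FPKM without and 4980.4 FPKM with it at 3 h.

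At the threshold itself, the 3 loci just inside were nscaf2795 591125 to 602053 with a mean of 1024 FPKM, nscaf3040 3258588 to 3315523 with 1032 and nscaf3027 4865662 to 4867304 with 1049. Just outside lay nscaf2886 229940 to 233028 with 983, nscaf2529 258030 to 259825 with 977 and nscaf3040 3388611 to 3400080 with 972 FPKM. The first of these outsiders owes its mean to 1 library, with 803 FPKM without and 303 FPKM with PTTH at 1 h, then 2524 FPKM without and 302 FPKM with it at 3 h. Of the 118 inside, 105 were at 1000 FPKM or more in every library and 13 fell under it in at least 1.

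Together the 118 loci held over 50% of all FPKM in every library. Their share at 1 h was 56.2% without and 56.4% with hormone, and at 3 h it was 57.7% and 57.6%, with counting SE of 0.247 to 0.388 percentage points. By this measure the 3 h libraries were higher than the 1 h libraries by about the same amount with and without hormone, and control and PTTH libraries of a time were within their SE of each other. Of the implied fragments, which are not divided by length, the same loci held 36.2% without and 32.6% with hormone at 1 h, and 32.5% and 37.3% at 3 h. These shares are lower and in another order, with control 3 h lowest and PTTH 3 h highest. They also depend on the width of the limits. Relative to control 1 h, abundant loci over 40000 implied fragments there had 1.17 times the fragments per FPKM with PTTH at 3 h. The factor was 0.862 without it at 3 h and 0.918 with it at 1 h. The control 3 h sum also lacks the locus listed at 0, which had 138651 to 251009 implied fragments elsewhere. What these add to the shares was not tested. With the 3 loci of few fragments or a listed 0 left out of both FPKM sums, the shares were 53.7%, 53.9%, 56.3% and 55.5% in the same order. By FPKM the 3 h libraries remained above the 1 h libraries, and PTTH 3 h then lay below control 3 h. The 20 loci with the highest means held FPKM shares of 19.7%, 20.4%, 18.9% and 20.5%. The low value in control 3 h is that of the library in which nscaf2674 615917 to 617309 was listed at 0. 87 loci were enough for 50% of all FPKM in each 1 h library, and 83 in each 3 h library.

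**Figure D3:**
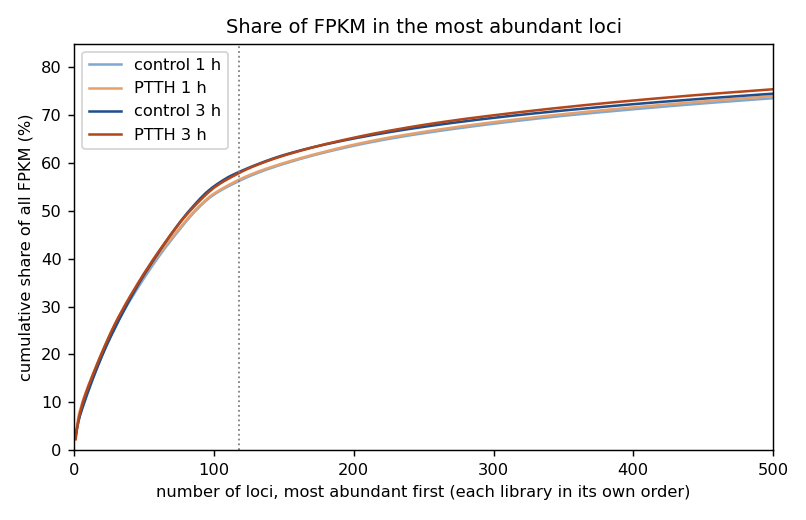
Cumulative share of all FPKM in percent against the number of loci, most abundant first in each library's own order, with 1 line per library and the dotted line at 118 loci. The curves bend at about 100 loci, and at the dotted line the 3 h libraries lie slightly above the 1 h libraries.

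The order of the loci was stable from library to library. Ranks by FPKM within a library moved by a median of 9 places between a locus's best and worst library. They moved by at most 5 places in 40 loci, by at most 10 in 66 and by more than 20 in 24. Of the 118 loci, 105 were among the first 118 in every library. Spearman's rho between libraries over the 117 loci above 0 was 0.978 for control 1 h and PTTH 1 h and 0.942 for control 3 h and PTTH 3 h. It was 0.928 between the controls of the 2 times and 0.968 between the PTTH libraries. These are descriptions over loci of the same libraries, chosen for a high mean.

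The widest rank ranges belong to a listed 0, to loci of few fragments and to loci that differed with hormone. After nscaf2674 615917 to 617309, which was at rank 2 in 3 libraries, came the short locus nscaf2883 1419090 to 1419261, at ranks 13, 71, 99 and 97 at 1 h without and with hormone and then at 3 h without and with it. At nscaf2828 5431044 to 5431251 the ranks in that order were 124, 99, 108 and 64. The locus nscaf2176 1260890 to 1266149 went from ranks 95, 88 and 94 to rank 38 in PTTH 3 h. Finally, nscaf2674 830261 to 832933 had ranks 112, 113, 149 and 95, lowest in control 3 h and highest in PTTH 3 h.

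After 1 h, the levels with and without hormone were close. The ratio of PTTH 1 h to control 1 h was within 1.2-fold in 109 of 118, with a median log2 ratio of -0.03 beside -0.07 for all tested loci. The authors' intervals lay apart for 16 higher and 49 lower loci, or 13.6% and 41.5%. In all tested loci the same call was made for 3.32% higher and 10.3% lower, at a depth that resolves less. Most of these differences are small, as 39 of the 49 lower and 12 of the 16 higher ones were under 1.1-fold. The balance between the directions rests on the scaling. With ratios centred on the median of tested loci the counts were 53 higher and 12 lower, with no share of tested loci at hand for this scaling. Under the values as deposited, that centring, a fixed total per library and upper-quartile scaling alike, 16 loci were higher and 12 lower, beside 3.32% and 5.18% of tested loci. Each rescaling shifted this ratio upward, so only lower calls could be lost. At 2-fold, 0 were higher and 1 was lower, beside 0.983% and 0.959% of tested loci, and the 1 is the short locus of few fragments at nscaf2883 1419090 to 1419261, with overlapping intervals. At 1.5-fold the counts were 1 higher and 1 lower, beside 1.97% and 2.76% of tested loci.

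The highest ratio with PTTH at 1 h was that of the compact locus nscaf2828 5431044 to 5431251 of 207 bases. Its levels were 926 FPKM without and 1426 FPKM with PTTH at 1 h, then 1375 FPKM without and 2988 FPKM with it at 3 h. The log2 ratio was 0.62 ± 0.075 (counting SE), which is 1.54-fold higher, and each PTTH library stood above its control. Next was nscaf2136 4891425 to 4891887, described above, 1.41-fold higher with a log2 ratio of 0.50 ± 0.009. The locus nscaf2801 616537 to 618688 had 1983 FPKM without and 2391 FPKM with PTTH at 1 h, then 1568 FPKM without and 2202 FPKM with it at 3 h. Its log2 ratio at 1 h was 0.27 ± 0.008, and both PTTH libraries lay above both controls. At nscaf2176 1260890 to 1266149 the levels were 1725 FPKM without and 2023 FPKM with PTTH at 1 h, then 2158 FPKM without and 3803 FPKM with it at 3 h, with a log2 ratio of 0.23 ± 0.010 at 1 h. The fifth by ratio is the locus with the highest mean, nscaf2800 2702344 to 2702905, whose 0.15 ± 0.54 is within its counting error.

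On the lower side at 1 h, after the short locus named above, stood nscaf2937 948265 to 953500, with 1147 FPKM without and 880.4 FPKM with PTTH at 1 h, then 1584 FPKM without and 776 FPKM with it at 3 h. Its log2 ratio was -0.38 ± 0.015. A locus at nscaf2853 890863 to 893024 had 1182 FPKM without and 929 FPKM with PTTH at 1 h, then 1645 FPKM without and 764 FPKM with it at 3 h, with a log2 ratio of -0.35 ± 0.016. In both, each PTTH library lay below both controls. The longest of the abundant loci, 56935 bases at nscaf3040 3258588 to 3315523, had 1015 FPKM without and 813 FPKM with PTTH at 1 h, then 1387 FPKM without and 912 FPKM with it at 3 h. Its log2 ratio of -0.32 ± 0.006 is small, with a low SE that covers counting error only, and control 3 h was its high library. The fifth, nscaf2951 682832 to 683029, had 2111 FPKM without and 1714 FPKM with PTTH at 1 h, then 929.7 FPKM without and 1410.5 FPKM with it at 3 h, and its log2 ratio of -0.30 ± 0.17 comes with overlapping intervals.

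After 3 h the differences were wider. The ratio of PTTH 3 h to control 3 h was within 1.2-fold in 88 of 118 loci, and its median log2 was -0.11 beside -0.19 for all tested loci. Intervals lay apart for 25 higher and 75 lower loci, or 21.2% and 63.6%, beside 13.1% and 34.4% of tested loci. The median counting SE was 0.014 in the abundant loci and 0.115 in tested loci, so the calls are made at unlike depth. Centred on the median of tested loci, a shift of 0.19 in log2, the split turned to 68 higher and 22 lower. With upper-quartile scaling it was 48 and 42. No share of tested loci is at hand for either scaling alone. For 29 loci the called direction itself depended on the scaling. Under all 4 scalings 25 were higher and 22 lower, beside 13.1% and 21.2% of tested loci. Here too each rescaling shifted the ratio upward, so only lower calls could be lost. At 2-fold 3 were higher and 2 lower, beside 2.84% and 3.44% of tested loci. One of the 3, XLOC_003452 at nscaf2674 615917 to 617309, is called through its listed 0 alone. At 1.5-fold the counts were 5 higher and 7 lower, beside 6.89% and 16.8% of tested loci.

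The largest ratio at 3 h with a value above 0 in each library was that of XLOC_003612, the locus at nscaf2674 830261 to 832933. Its levels were 1017 FPKM without and 1053 FPKM with PTTH at 1 h, then 685 FPKM without and 2049 FPKM with it at 3 h. Control 3 h was its lowest library and PTTH 3 h its highest, 2.99-fold apart with a log2 ratio of 1.58 ± 0.12. The values rest on 205 to 514 implied fragments, few for this level. The compact locus nscaf2828 5431044 to 5431251 was 2.17-fold higher, with a log2 ratio of 1.12 ± 0.051. At nscaf2176 1260890 to 1266149 PTTH 3 h was 1.76-fold higher than control 3 h, with a log2 ratio of 0.82 ± 0.009, from at least 39204 implied fragments in each library. The log2 ratio at nscaf2951 682832 to 683029 was 0.60 ± 0.18, on 127 and 134 implied fragments at 3 h.

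Lowest with PTTH at 3 h were XLOC_006457 at nscaf2853 890863 to 893024, 2.15-fold lower with a log2 ratio of -1.11 ± 0.015, and XLOC_009154 at nscaf2937 948265 to 953500, 2.04-fold lower with -1.03 ± 0.014. The libraries have the same order in both, and with the ratio centred neither reached 2-fold. On the same scaffold as the former, nscaf2853 1299859 to 1301456 had 1461 FPKM without and 1298 FPKM with PTTH at 1 h, then 1839.5 FPKM without and 1137 FPKM with it at 3 h. The hormone ratio at 3 h was -0.69 ± 0.035 in log2, or 1.62-fold lower. The locus nscaf2931 1217209 to 1224911 had 1228 FPKM without and 1006 FPKM with PTTH at 1 h, then 1253 FPKM without and 812 FPKM with it at 3 h, and its log2 ratio was -0.63 ± 0.014. Both PTTH libraries lay below both controls there. At nscaf2176 3992076 to 3994335 the levels were 2296 FPKM without and 1929.7 FPKM with PTTH at 1 h, then 1882 FPKM without and 1231 FPKM with it at 3 h. Its log2 ratio with hormone was -0.61 ± 0.009, and it was also lower at 3 h than at 1 h in both kinds of library.

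**Figure D4:**
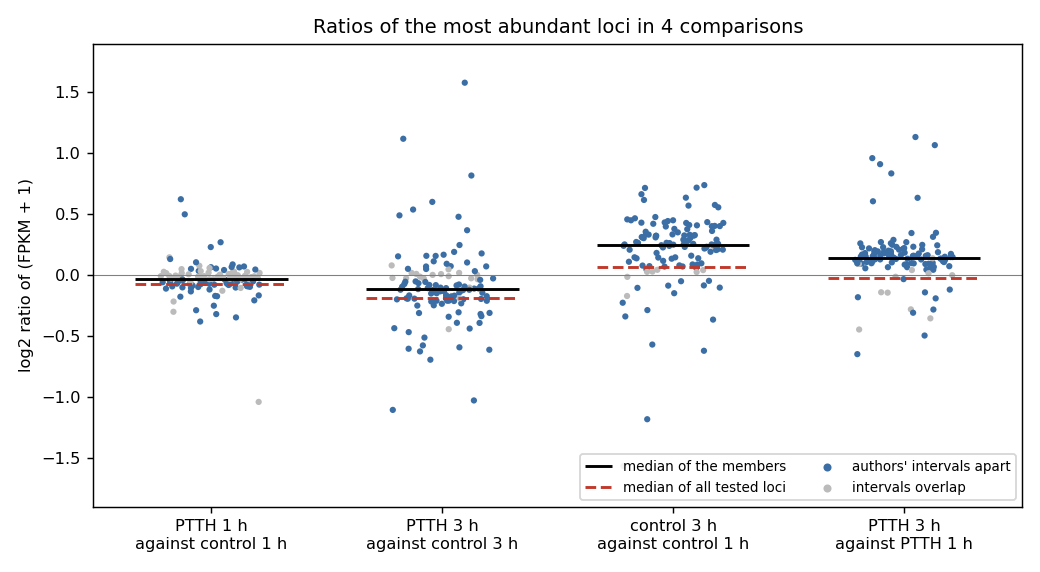
Log2 ratios of (FPKM + 1) for the abundant loci in 4 comparisons, 1 point per locus, blue where the authors' intervals lie apart and grey where they overlap, with the median of the abundant loci (black) and of all tested loci (dashed red). The ratios through the listed 0 at nscaf2674 615917 to 617309 lie outside the axis, and the black line is above the red one in each comparison.

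The 1 h and 3 h hormone comparisons use separate libraries, so a difference seen at both times is a second reading from other larvae, though in 1 library each. Of the 118, 9 were higher with PTTH at both times with intervals apart, and the same 9 were so under all 4 scalings, beside 2.3% of tested loci. Each rescaling shifted both hormone ratios upward, so no higher call could be lost and the unchanged 9 is no check. They include nscaf2828 5431044 to 5431251, nscaf2176 1260890 to 1266149, nscaf2136 4891425 to 4891887 and nscaf2801 616537 to 618688. Among the rest of the 9, nscaf2986 3421634 to 3431850 and nscaf3074 225808 to 228153 had smaller log2 ratios at 1 h, 0.06 ± 0.017 and 0.11 ± 0.017. At 3 h these were 0.48 ± 0.013 and 0.18 ± 0.016. Lower at both times as deposited were 35 loci, beside 7.89% of tested loci, but only 8 under all 4 scalings, beside 3.63%. The 8 include nscaf2853 890863 to 893024, nscaf2937 948265 to 953500, nscaf2931 1217209 to 1224911, nscaf2176 3992076 to 3994335 and nscaf3040 3258588 to 3315523.

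Between the controls of the 2 culture times, 57 of 118 loci were within 1.2-fold, and between the PTTH libraries 98 were. In control glands the median log2 ratio of 3 h to 1 h was 0.25, beside 0.06 for all tested loci, and it stayed positive under each scaling, from 0.13 with a fixed total per library upward. Intervals lay apart for 94 higher and 15 lower loci, or 79.7% and 12.7%, beside 25.0% and 12.8% of tested loci, whose depth resolves less. Under all 4 scalings 75 were higher and 15 lower, beside 17.7% and 12.8%. Each rescaling shifted this ratio downward, so only higher calls could be lost. Most of the higher ones were modest, with 88 of the 94 under 1.5-fold. At 2-fold 0 were higher and 3 lower, beside 2.36% and 1.24% of tested loci, and the 3 include the locus listed at 0 and the short locus of few fragments. At 1.5-fold the counts were 6 higher and 4 lower, beside 9.85% and 5.35% of tested loci. The larvae of the 2 times differ, so time and larval pool cannot be told apart.

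The highest ratio between the controls was at nscaf2877 12756 to 16200, with 1722 FPKM without and 1724 FPKM with PTTH at 1 h, then 2874 FPKM without and 2191 FPKM with it at 3 h. Its log2 ratio was 0.74 ± 0.013, and PTTH 3 h lay between control 3 h and the 1 h libraries. At nscaf2986 3421634 to 3431850 the levels were 906 FPKM without and 947 FPKM with PTTH at 1 h, then 1491 FPKM without and 2078 FPKM with it at 3 h. The log2 ratio of the controls was 0.72 ± 0.016, and PTTH 3 h was higher again. The locus nscaf1898 9135881 to 9142328 had 1409 FPKM without and 1249.5 FPKM with PTTH at 1 h, then 2314 FPKM without and 2229 FPKM with it at 3 h, with a log2 ratio of 0.72 ± 0.018 in the controls. Both 3 h libraries there were close to each other and above both 1 h libraries. At nscaf2937 990178 to 993339 the levels were 4129.7 FPKM without and 4106 FPKM with PTTH at 1 h, then 6544 FPKM without and 4732 FPKM with it at 3 h. Its log2 ratio in the controls was 0.66 ± 0.016, and control 3 h stood alone. Similar in size was nscaf2511 5369107 to 5371668, at 0.64 ± 0.005.

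Of the loci lower in control 3 h, nscaf2674 615917 to 617309 was listed at 0, and the short locus nscaf2883 1419090 to 1419261 had a log2 ratio of -1.57 ± 1.07 with overlapping intervals. The locus nscaf2951 682832 to 683029 was 2.27-fold lower, with -1.18 ± 0.17. At nscaf2964 2763975 to 2764697 the levels were 1155 FPKM without and 1203 FPKM with PTTH at 1 h, then 751 FPKM without and 1091 FPKM with it at 3 h. Control 3 h was the low library, with a log2 ratio of -0.62 ± 0.089. The fifth is nscaf2674 830261 to 832933, at -0.57 ± 0.14. These 3 loci have 127, 503 and 205 implied fragments in their thinnest library, against a median of 17682 for the abundant loci.

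With hormone the ratios of 3 h to 1 h were narrower and again mostly positive. Their median log2 was 0.14, beside -0.03 for all tested loci, and 0.04 with a fixed total per library. Intervals lay apart for 97 higher and 9 lower loci, or 82.2% and 7.63%, beside 19.8% and 20.5% of tested loci, whose depth resolves less. With a fixed total per library they were 54 and 19, with no share of tested loci at hand for this scaling. Under all 4 scalings 54 were higher and 8 lower, beside 14.6% and 18.7% of tested loci. The middle 50% of the abundant loci spanned 0.11 in log2, and 0.28 in the controls. Of the 118, 91 were within 1.1-fold of the median ratio with hormone and 57 in the controls. In all tested loci, with their larger counting error, the middle 50% spanned 0.53 with hormone and 0.51 in the controls. Of these 8547, 2098 with hormone and 2099 in the controls lay within 1.1-fold of the abundant loci's medians. At 2-fold 2 were higher and 0 lower, beside 4.2% and 1.73% of tested loci. At 1.5-fold the counts were 7 higher and 1 lower, beside 9.31% and 9.1% of tested loci.

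The 2 loci past 2-fold were nscaf2986 3421634 to 3431850, 2.19-fold higher with a log2 ratio of 1.13 ± 0.014, and nscaf2828 5431044 to 5431251, 2.10-fold higher with 1.07 ± 0.054. The levels of each were lowest in control 1 h and highest in PTTH 3 h. They were followed by nscaf2674 830261 to 832933 at 0.96 ± 0.11, nscaf2176 1260890 to 1266149 at 0.91 ± 0.009 and nscaf1898 9135881 to 9142328 at 0.83 ± 0.017. On the lower side, nscaf2176 3992076 to 3994335 led with -0.65 ± 0.009, which is 1.57-fold lower. The locus nscaf3097 312624 to 316790 had 2855 FPKM without and 2544 FPKM with PTTH at 1 h, then 2439.8 FPKM without and 1804 FPKM with it at 3 h. Its log2 ratio was -0.50 ± 0.031 with hormone and -0.23 ± 0.029 without, so that its level was lower in the later library of each kind. At nscaf2931 1217209 to 1224911 the ratio was -0.31 ± 0.015. The other 2 of the lowest 5, nscaf2883 1419090 to 1419261 at -0.45 ± 1.23 and nscaf2800 2702344 to 2702905 at -0.35 ± 0.49, have overlapping intervals.

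The time comparisons of control and PTTH glands share no library, but control and PTTH glands of a time shared their larvae. Higher at 3 h in both kinds, with intervals apart, were 84 loci as deposited and 47 under all 4 scalings, beside 11.9% and 7.51% of tested loci. Lower in both kinds were 4 loci as deposited, beside 6.83% of tested loci, and 4 under every scaling, beside 6.45% of tested loci. They were nscaf2176 3992076 to 3994335, nscaf2801 616537 to 618688, nscaf3027 4865662 to 4867304 and nscaf3097 312624 to 316790. A larval pool that differed between the times would enter both ratios, and its part was not tested.

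**Figure D5:**
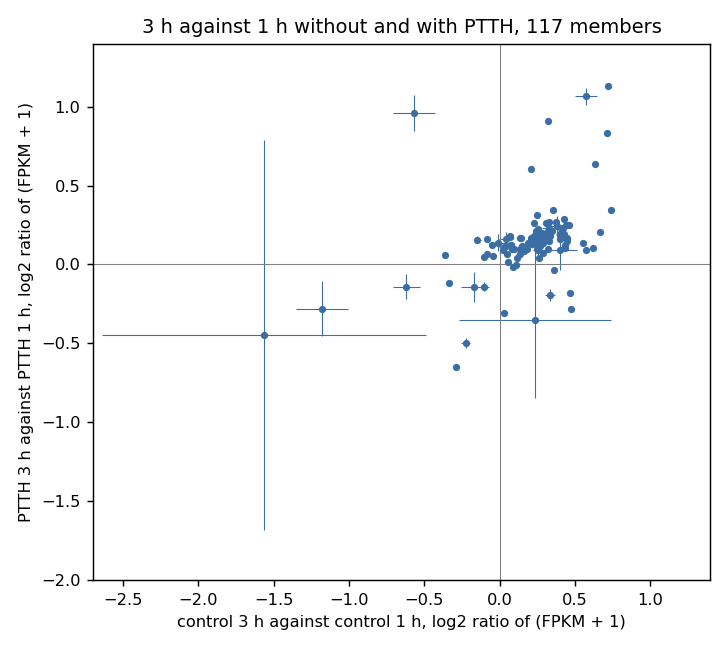
Log2 ratio of 3 h to 1 h with PTTH (vertical) against that without (horizontal) for the 117 abundant loci above 0 in every library, with bars of 1 counting SE. Most points form a compact group to the right of 0 and above it, and the points with long bars are the loci of few implied fragments.

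The difference of the hormone ratios, the 3 h value less the 1 h value in log2, had a median of -0.08 in the abundant loci and -0.11 in all tested loci. Its sign depended on the scaling, with 0.02 when centred on the median of tested loci and -0.01 with upper-quartile scaling. It reached 1 in 3 loci and -1 in 0, beside 3.17% and 2.33% of tested loci. The 3 were the locus listed at 0, nscaf2674 830261 to 832933 at 1.53 ± 0.18 and the short locus nscaf2883 1419090 to 1419261 at 1.12 ± 1.64, the last within its error. Next came nscaf2951 682832 to 683029 at 0.90 ± 0.24 and nscaf2176 1260890 to 1266149 at 0.59 ± 0.013. The most negative were nscaf2853 890863 to 893024 at -0.76 ± 0.022 and nscaf2937 948265 to 953500 at -0.65 ± 0.021. They were followed by nscaf2800 2702344 to 2702905 at -0.59 ± 0.70, nscaf2853 1299859 to 1301456 at -0.52 ± 0.051 and nscaf2686 19994 to 20837 at -0.51 ± 0.017. The levels of the last were 2752 FPKM without and 2626 FPKM with PTTH at 1 h, then 4220.0 FPKM without and 2829 FPKM with it at 3 h, so that control 3 h stood alone.

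The span of a locus is not independent of the rule, since FPKM is taken per length, so spans are given as a description. The median span of the abundant loci was 2409.5 bases, against 4604 for the other tested loci, and the middle 50% ran from 1232 to 3608 bases. Only 4 of 118, or 3.39%, spanned 10000 bases or more, against 23.7% of the other tested loci. Short spans under 600 bases were found in 14, or 11.9%, against 7.55%. The 14 held 8.94% of all FPKM in control 1 h, with the locus of few fragments at nscaf2800 2702344 to 2702905 among them. The 118 lie on 66 scaffolds, with 7 on nscaf2888 and 6 on nscaf1898. Of the 8193 pairs of consecutive tested loci on a scaffold, 3 were made up of abundant loci. They were nscaf2674 6455506 to 6460005 with nscaf2674 6462231 to 6465732, nscaf2795 3112009 to 3114954 with nscaf2795 3124481 to 3128383, and nscaf2937 948265 to 953500 with nscaf2937 990178 to 993339. Both loci of the last pair were lower with PTTH at 3 h, with hormone ratios of -1.03 ± 0.014 and -0.47 ± 0.014 in log2. None of the 118 overlaps another locus of the table.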

How the data were processed

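RNA of 4 gland libraries was sequenced, and the authors deposited 1 table of gene FPKM values with lower and upper confidence limits from Cuffdiff, per the file headers. CASAVA 1.8.0, TopHat and SAMtools are named in the submitters' processing notes. The genome build, whether starts count from 0 or 1, and how the limits were made are not stated in the sources at hand. Another 5 columns of per-library ratios were not used. Members and lists were chosen with earlier results of these data known. Groups follow the sample labels, and groups of 1 library allow no p-value. The 8547 loci averaging 1 FPKM or more were compared by log2(FPKM + 1), a scale on which changes of low loci come out too small. A difference was called where the authors' limits did not overlap, or at 2-fold. Counting SE and implied fragments, (2 x FPKM / (upper limit - FPKM)) squared, were taken from the limits and cover counting error only, and the true depth is unknown. The named loci were the 20 highest by mean, the 5 highest and 5 lowest by each ratio and by the difference of the PTTH ratios, the 5 widest in rank range and the 3 on each side of the threshold. Alternatives were other scalings, pseudocounts, thresholds, filters and member sets. Scripts in Python 3.11.15 with numpy 2.4.6, pandas 2.3.3 and matplotlib 3.10.9 were tested on simulated data.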

Additional observations from a re-analysis of the deposited data

Results flagged for a closer look

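In 5 abundant loci the ratio of 3 h to 1 h went opposite ways in control and PTTH glands, with the authors' intervals apart and at least 1.1-fold in each. The difference was not tested, since each group is 1 library. It is the same number as the difference of the hormone ratios, so it is no second reading. The rule was applied to the values as deposited, and no share of tested loci that meet it is at hand. With a fixed total per library the log2 ratios shift by -0.11 in controls and -0.089 with PTTH. The shift with PTTH takes the ratio at nscaf2993 96766 to 97648 under the 1.1-fold rule. At nscaf2674 830261 to 832933, which has few implied fragments for its level, the log2 ratio was -0.57 in controls and 0.96 with PTTH, a difference of 1.53. At nscaf2853 890863 to 893024 it was 0.48 and -0.28, a difference of -0.76. At nscaf2937 948265 to 953500 it was 0.47 and -0.18, a difference of -0.65. At nscaf2853 1299859 to 1301456 it was 0.33 and -0.19, a difference of -0.52. At nscaf2993 96766 to 97648 it was -0.15 and 0.16, a difference of 0.31. The hormone ratio went opposite ways at 1 h and 3 h at nscaf2795 591125 to 602053, with -0.21 and 0.19, a difference of 0.40 that was not tested either. Centring on the median of tested loci shifts the 1 h hormone ratio by 0.074 in log2. That shift takes this locus under the 1.1-fold rule.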

How the results depend on the processing

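No paired analysis was possible because each group has 1 library, and no replicate could be left out. Recomputing the results under the alternatives gave 254 values, of which 165 stayed near the main value, 84 moved and 5 changed sign. Counts, rank ranges and percents of loci called were taken as near when within 1.5-fold of the main value, which is a loose rule. Shares and median ratios were taken as near when they changed by less than their counting error. Counts of called loci in this paragraph stand without a share of tested loci, so they describe the abundant loci only. The sign of the median hormone ratio at both times, and of the difference between them, depended on the scaling, and that of both time ratios did not under any scaling run. The depth limits the locus with the highest mean and the short locus on nscaf2883. At 1.5-fold in place of 2-fold, loci past the fold numbered 1 for PTTH 1 h against control 1 h (higher), 5 for PTTH 3 h against control 3 h (higher), 7 for PTTH 3 h against control 3 h (lower), 6 for control 3 h against control 1 h (higher), 7 for PTTH 3 h against PTTH 1 h (higher) and 1 for PTTH 3 h against PTTH 1 h (lower). With loci at 1000 FPKM or more in every library, the share was 52.2% for control 1 h, 52.5% for PTTH 1 h, 55.8% for control 3 h and 53.2% for PTTH 3 h. Loci with intervals apart numbered 5 for PTTH 3 h against PTTH 1 h (lower). Loci past the fold numbered 0 for PTTH 3 h against control 3 h (higher), 0 for PTTH 3 h against control 3 h (lower), 1 for control 3 h against control 1 h (lower) and 0 for PTTH 3 h against PTTH 1 h (higher). Centred on the median of tested loci, the median log2 ratio was 0.0399 for PTTH 1 h against control 1 h, 0.0778 for PTTH 3 h against control 3 h, 0.19 for control 3 h against control 1 h and 0.023 for difference of the PTTH ratios between 3 h and 1 h. Loci with intervals apart numbered 53 for PTTH 1 h against control 1 h (higher), 12 for PTTH 1 h against control 1 h (lower), 68 for PTTH 3 h against control 3 h (higher) and 22 for PTTH 3 h against control 3 h (lower). Loci past the fold numbered 0 for PTTH 1 h against control 1 h (lower) and 0 for PTTH 3 h against control 3 h (lower). With a fixed total per library, the median log2 ratio was -0.0646 for PTTH 3 h against control 3 h, 0.13 for control 3 h against control 1 h and 0.0393 for PTTH 3 h against PTTH 1 h. Loci with intervals apart numbered 31 for PTTH 1 h against control 1 h (lower), 28 for control 3 h against control 1 h (lower), 54 for PTTH 3 h against PTTH 1 h (higher) and 19 for PTTH 3 h against PTTH 1 h (lower). Loci past the fold numbered 1 for PTTH 3 h against control 3 h (lower) and 1 for PTTH 3 h against PTTH 1 h (higher). With loci listed at 0 left out, the share was 55.4% for control 1 h, 55.5% for PTTH 1 h and 56.7% for PTTH 3 h. From a mean of 2000 FPKM, the share was 51.9% for control 1 h, 52.2% for PTTH 1 h, 53.2% for control 3 h and 53.1% for PTTH 3 h. Loci with intervals apart numbered 15 for PTTH 3 h against control 3 h (higher) and 3 for PTTH 3 h against PTTH 1 h (lower). Counts past the fold were 1 for PTTH 3 h against control 3 h (higher), 0 for PTTH 3 h against control 3 h (lower) and 0 for PTTH 3 h against PTTH 1 h (higher). From a mean of 500 FPKM, the number of loci was 185. The share was 62.4% for control 1 h, 62.6% for PTTH 1 h, 64.0% for control 3 h and 64.1% for PTTH 3 h. Loci with intervals apart numbered 27 for PTTH 1 h against control 1 h (higher), 50 for PTTH 3 h against control 3 h (higher), 30 for control 3 h against control 1 h (lower) and 22 for PTTH 3 h against PTTH 1 h (lower). Past the fold there were 1 for PTTH 1 h against control 1 h (higher), 2 for PTTH 1 h against control 1 h (lower), 12 for PTTH 3 h against control 3 h (higher), 6 for PTTH 3 h against control 3 h (lower), 1 for control 3 h against control 1 h (higher) and 7 for PTTH 3 h against PTTH 1 h (higher). Without the 3 loci of few fragments or a listed 0 (an alternative chosen after seeing the data), the share was 53.7% for control 1 h, 53.9% for PTTH 1 h, 56.3% for control 3 h and 55.5% for PTTH 3 h. Counts past the fold were 0 for PTTH 1 h against control 1 h (lower) and 1 for control 3 h against control 1 h (lower). With upper-quartile scaling, the median log2 ratio was 0.0118 for PTTH 1 h against control 1 h, 0.00649 for PTTH 3 h against control 3 h, 0.19 for control 3 h against control 1 h and -0.0119 for difference of the PTTH ratios between 3 h and 1 h. Loci with intervals apart numbered 35 for PTTH 1 h against control 1 h (higher), 22 for PTTH 1 h against control 1 h (lower), 48 for PTTH 3 h against control 3 h (higher) and 42 for PTTH 3 h against control 3 h (lower). Counts past the fold were 0 for PTTH 1 h against control 1 h (lower) and 0 for PTTH 3 h against control 3 h (lower). Without the most abundant locus, the share was 55.0% for control 1 h, 55.0% for PTTH 1 h, 56.4% for control 3 h and 56.7% for PTTH 3 h.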

Other observations

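A further 13 loci reached 1000 FPKM in at least 1 library with a mean under 1000 FPKM. They include some with wide differences between libraries. The locus at nscaf2943 3603651 to 3608517 had 95.2 FPKM without and 1141 FPKM with PTTH at 1 h, then 81.8 FPKM without and 1382 FPKM with it at 3 h. The locus nscaf2176 1202422 to 1208982, on the scaffold of nscaf2176 1260890 to 1266149, had 395 FPKM without and 588 FPKM with PTTH at 1 h, then 443 FPKM without and 1489 FPKM with it at 3 h. These examples were chosen after their values were seen, and PTTH 3 h is the highest library in both.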
